A study of Mus musculus with 2 samples.

Results

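Expression of 37 genes for the lipids of the skin barrier was compared between a three-dimensional skin model of Itih5 knockout mouse cells and a wildtype model. The genes were taken as a list of symbols, and all 37 had at least 1 probe set naming no other gene, among 22180 such genes on the array. Each model was measured once, so the group labelled Itih5 knockout and the group labelled wildtype hold 1 sample each, both marked day 7 in their titles. Per the labels' protocols, both models were made of keratinocytes and fibroblasts taken from untreated adult mice and passaged until the cells grew without collagen. The strain, sex and number of the mice behind each model and the part of Itih5 that was removed are not stated in the labels. With 1 sample a group no difference has a replicate check, no error can be given and no p-value was computed, so every difference below is one between 2 arrays.

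The barrier lies in the outermost layer of the epidermis, where dead cells are embedded in sheets of ceramides, cholesterol and fatty acids. Ceramides are built from serine and fatty acyl-CoA, and the epidermis makes special ones, acylceramides, whose very long fatty acid is elongated, hydroxylated at its far end and joined to linoleic acid. They are glucosylated, loaded into lamellar bodies and secreted, and lipoxygenases then oxidise the linoleate so that the ceramide can be bound to proteins of the cornified envelope. Inherited loss of many of these genes causes ichthyosis.

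The deposited intensities had lost their decimal point, and a value is called decided where 1 place of the point was clearly the likeliest (probability of at least 0.95). Of the 37 genes, 15 had only 1 possible place on both arrays, 14 were decided among several places, and 8 stayed undecided. Intensities below are linear, with the knockout model first, and differences are log2 of knockout minus wildtype. The median level of all probe sets was 46.4, and the 5th percentile was 21.4 in both models. No place of the point giving less than 18 was allowed, so the lowest readings also depend on that limit. Markers of the labelled cells were present in both models, with Krt14, a keratin of basal keratinocytes, at 4076 and 9538 and the collagen gene Col1a1 at 2145 and 876. Itih5 itself had 30.4 and 29.8, under the median level in both, so its probe set (17366670) checks neither label.

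The genes furthest apart included those of late barrier steps, and they were lower in the knockout model. Among the 29 decided genes, 9 (31.0%) were lower by 2-fold or more in the knockout model, against 2.02% of all 20792 decided genes. Higher by as much was 1 gene (3.45%), against 2.31%. These genes and the lists used below were chosen with earlier results of these data known, so such shares only describe the lists. The 9 were Sdr9c7, Lipm, Lipk, Cers3, Alox12b, Abca12, Smpd3, Pnpla1 and Sptlc3, and the 1 was Acer2. The other 19 were under 2-fold, and 16 of the 29 (55.2%) were within 1.5-fold, against 87.6% of all genes. The median difference of the 29 was -0.18, beside 0.01 over all decided genes. With every gene at its likeliest place, undecided ones included, 11 were lower and 5 higher and the median was -0.045.

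**Figure D1:**
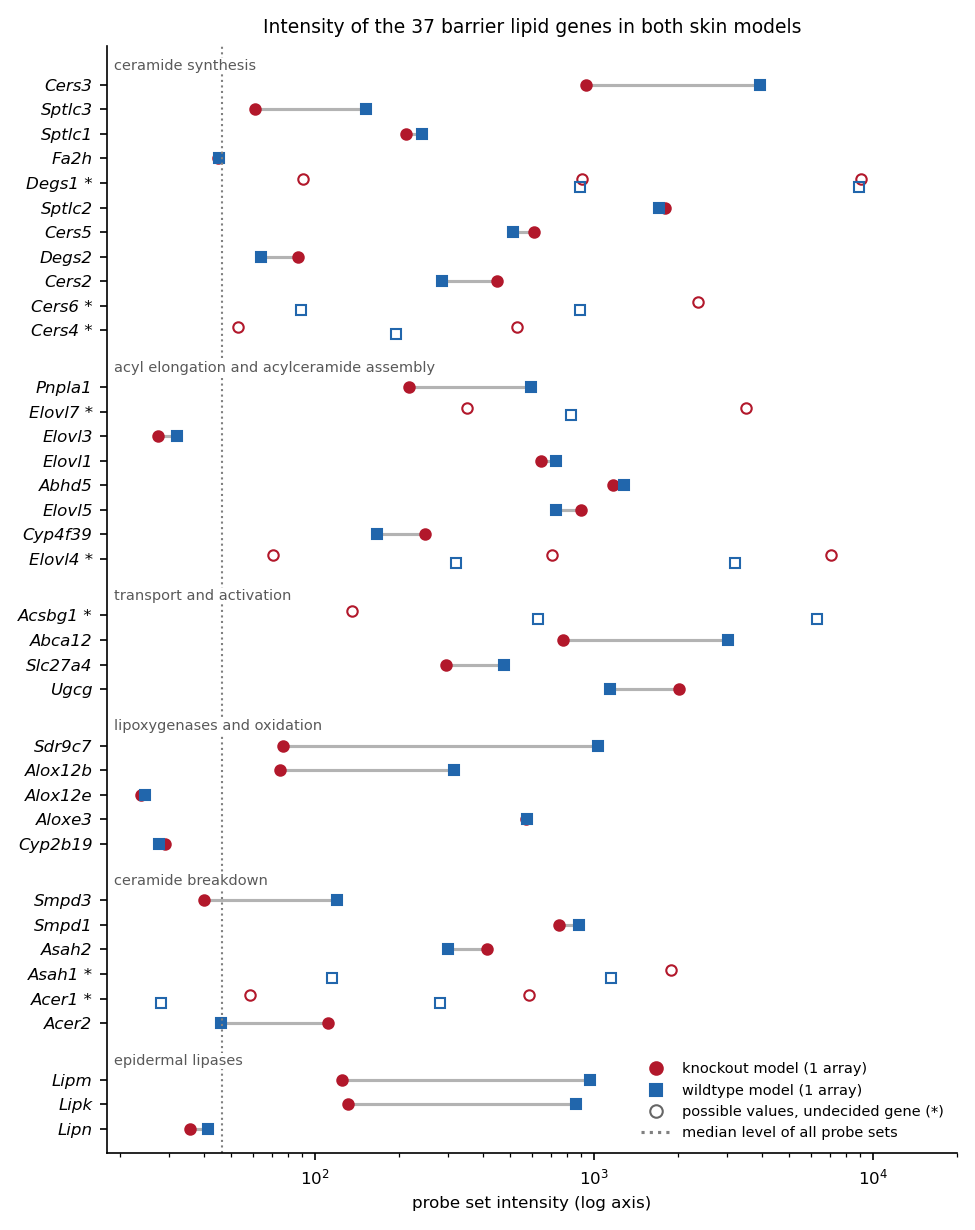
Probe set intensity (log axis) of the 37 genes in the knockout (circles) and wildtype (squares) models, 1 array each, grouped by role; open symbols give all possible values of the 8 undecided genes, and the dotted line is the median level of all probe sets, 46.4. Long bars with the knockout value on the left mark the lower genes, from Sdr9c7 (76.8 and 1037) to Sptlc3 (60.7 and 153).

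Among genes of ceramide synthesis, Sptlc3 and Cers3 were lower by 2-fold or more in the knockout model, and the other 6 decided genes were under 2-fold. Serine palmitoyltransferase starts sphingolipid synthesis, and its common subunits Sptlc1 (211 and 241, a difference of -0.19) and Sptlc2 (1798 and 1716, a difference of 0.07) were close to equal, each with 1 possible place. Sptlc3, its alternative catalytic subunit, stood at 60.7 in the knockout model and 153 in wildtype, 2.51-fold lower. Ceramide synthases join the fatty acid to the sphingoid base, and each prefers a certain chain length. Cers3, the synthase for the very long chains of acylceramides, had 935 and 3947, 4.22-fold lower. Cers2, for very long chains in most tissues, went the other way without reaching 2-fold, with 451 and 286 (1.58-fold) on probe set 17400317 and 109 and 91.0 (1.20-fold) on probe set 17407794. Cers5, for shorter chains, had 608 and 513, a difference of 0.25 at the accepted place.

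Cers6 and Cers4 could not be decided, but for Cers6 the direction did not depend on the point. Its intensity was 2361 in the knockout model and either 889 or 88.9 in wildtype, so it was 2.66-fold or 26.6-fold higher. Cers4 had 528 or 52.8 against 195, which is 2.72-fold higher or 3.68-fold lower, and no direction can be given. Within the family, then, Cers3 was lower at its only possible value and Cers6 higher at both of its values. Degs1, the desaturase that completes a common ceramide, was undecided between 6 pairs of values, and its likeliest pair, 908 and 889, was near equality. Degs2, which hydroxylates instead to form phytoceramides, had 87.2 and 64.1 (a difference of 0.44). Fa2h, the fatty acid hydroxylase, was under the median level in both models with 45.1 and 45.4.

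Genes that elongate fatty acids were mostly near equality where they could be read. Elovl1, which elongates saturated very long chains, had 647 and 734 (a difference of -0.18), and Elovl5, an elongase of polyunsaturated chains, 895 and 733 (0.29). Elovl3, an elongase of sebaceous gland and hair follicle, was near the lowest readings with 27.4 and 32.0. Elovl4, which makes the ultra-long chains of acylceramides, had 3 possible values in the knockout model (70.8, 708 and 7080) and 2 in wildtype (321 and 3212), and its differences ran from -5.50 to 4.46. Elovl7, a further elongase gene, had 352 or 3517 against 828, so it was 2.35-fold lower or 4.25-fold higher. Both elongases therefore have no direction here.

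The later steps toward acylceramide were split. Cyp4f39, the hydroxylase of the chain's far end, had 248 and 167 (1.49-fold higher at the accepted place, with 1670.4 and 16704 as other possible wildtype values). Pnpla1, the transacylase that joins linoleate to the chain, had 217 and 593, 2.73-fold lower, on probe set 17335419. Its other probe set (17342940) lay under the median level at the accepted place, with 35.8 and 45.3 (a difference of -0.34). The other possible knockout value of that probe set was 358. The mean over both probe sets at their accepted places, -0.89, is under 2-fold. Abhd5, the lipase cofactor that works with Pnpla1, had 1171 and 1281, a difference of -0.13 at its only possible values.

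Among genes for activation, glucosylation and transport, the lamellar body transporter stood out. Abca12, which carries glucosylceramide into lamellar bodies, had 772 in the knockout model and 3031 in wildtype, 3.93-fold lower. Ugcg, which adds the glucose, went the other way with 2019 and 1138, 1.77-fold higher at the accepted place and 17.7-fold at the other possible one. The fatty acid transport protein gene Slc27a4 had 295 and 476, 1.61-fold lower. Acsbg1, an acyl-CoA synthetase, was undecided between 630.0 and 6300.5 in wildtype against 136 in the knockout model, so it was 4.62-fold or 46.2-fold lower. Gene for gene, glucosylation and transport did not differ in the same direction.

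The oxidation of linoleate held the largest difference among the decided genes of the barrier lipid list. Sdr9c7, a dehydrogenase that acts after the lipoxygenases, had 76.8 in the knockout model and 1037 in wildtype, 13.5-fold lower, with 1 possible place on both arrays. Alox12b, the first lipoxygenase of the pair, had 75.0 and 314, 4.19-fold lower, and its other possible wildtype value, 3145, would make it lower still. Aloxe3, the partner that acts on the product of Alox12b, had 572 and 574, equal at the accepted place (probability 0.99), whereas the other possible knockout value, 57.2, would be 10.0-fold lower. Aloxe3 and Alox12b are neighbours on chromosome 11 in the RefSeq table of GRCm38.p6, followed by Alox8, which lay under the median level with 42.6 and 42.2. Alox12e, the mouse epidermal lipoxygenase gene, was near the lowest readings with 23.8 and 24.6, and its neighbour Alox12, also a lipoxygenase gene, had 39.4 and 116. Cyp2b19, a keratinocyte epoxygenase, had 29.0 and 27.6, under the median level in both models.

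**Figure D2:**
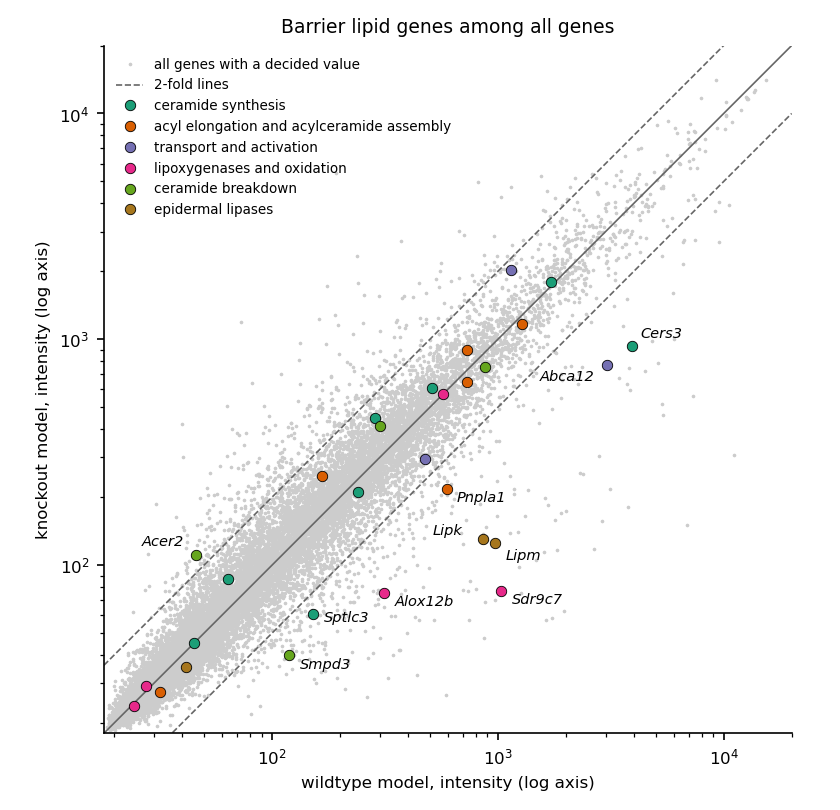
Intensity in the knockout model against the wildtype model (both log axes), 1 array each; grey points are the 20792 decided genes, coloured points the 29 decided barrier lipid genes by role, and dashed lines mark 2-fold. The 9 lower genes lie under the lower dashed line, Acer2 alone above the upper one, and the others along the diagonal.

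Among genes that break down ceramide or release it from sphingomyelin, Acer2 was higher and Smpd3 lower by 2-fold or more in the knockout model. The other decided genes of this group were under 2-fold. Acer2, an alkaline ceramidase, had 111 in the knockout model and 46.2 in wildtype, 2.41-fold higher, the wildtype value lying at about the median level. Asah1, the acid ceramidase of lysosomes, was undecided with 1882 against 1148 or 115, higher at both (1.64-fold and 16.4-fold). Acer1, the ceramidase of the upper epidermis, was 2.08-fold higher at its likeliest values (582 and 280.1), but 1 of its 4 pairs was 4.81-fold lower. Asah2, the neutral ceramidase, had 413 and 300 (1.38-fold higher). Sphingomyelinases release ceramide from sphingomyelin. Smpd3, a neutral one, had 40.1 and 119 (a difference of -1.57, with the knockout value under the median level), and Smpd1, the acid one, 751 and 881 on probe set 17481388 and 129 and 167 on probe set 17494507.

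The epidermal lipase genes Lipk, Lipn and Lipm follow each other on chromosome 19 in the RefSeq table, with no other protein-coding gene between them. They encode members of the acid lipase family expressed in late epidermal differentiation. Lipm had 125 and 970.0, 7.77-fold lower, and the other possible wildtype value was higher still (9700). Lipk had 131 and 860.2, 6.57-fold lower, but its other possible knockout value, 13086, would make it 15.2-fold higher; its place had a probability of 0.98. Lipn, between them, was under the median level in both models, with 35.6 and 41.5. No direction of Lipn can be read at that level.

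**Figure D3:**
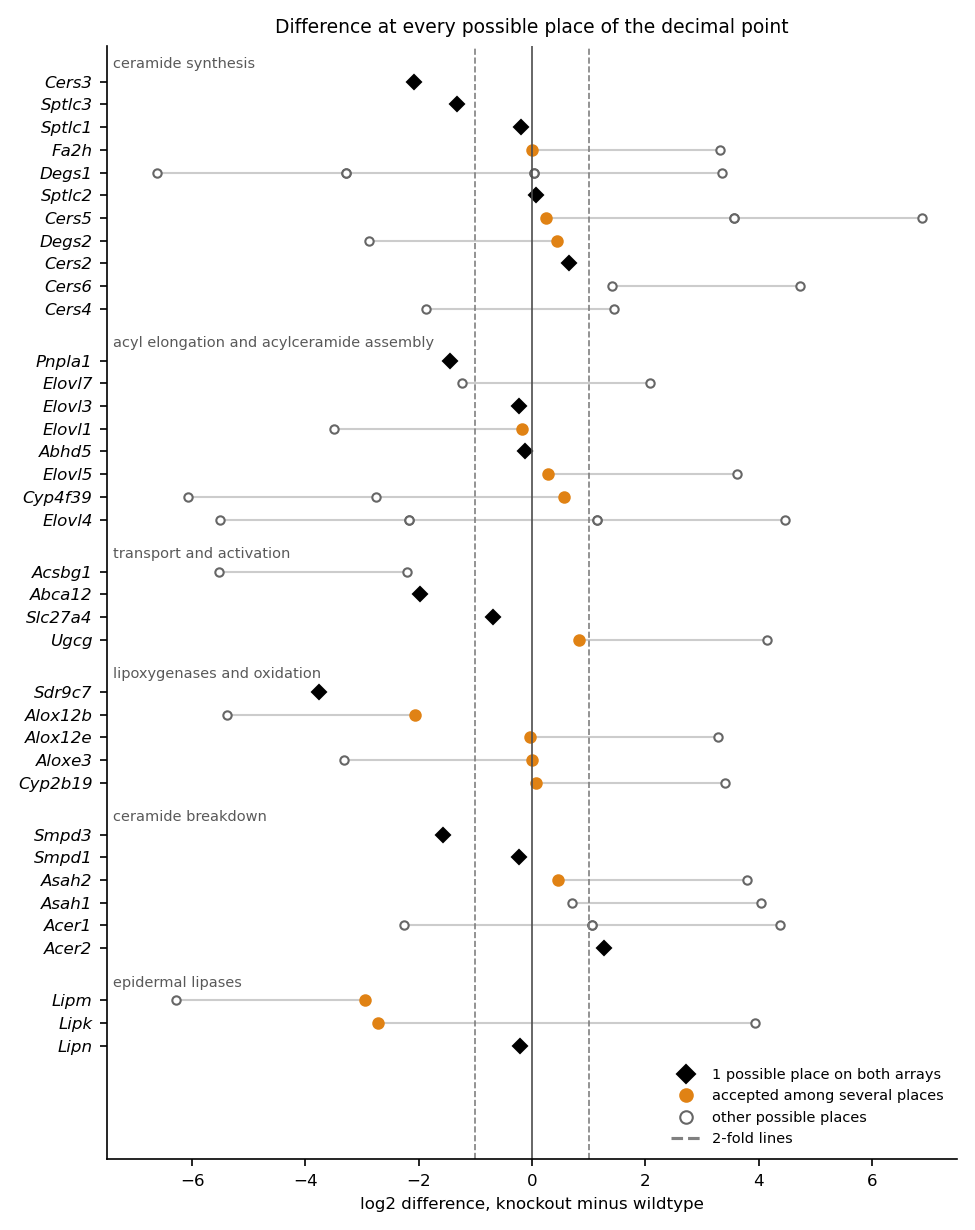
Log2 difference of knockout minus wildtype for all 37 genes at every possible place of the decimal point; diamonds have 1 possible place, filled circles are accepted among several, open circles are the other possible places, and dashed lines mark 2-fold. Sdr9c7, Cers3, Abca12, Smpd3, Pnpla1, Sptlc3 and Acer2 have a single point beyond 2-fold, while Lipk is the lower gene whose other place lies on the opposite side.

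Counted at every possible place of 1 probe set a gene, 9 of the 37 genes (24.3%) were lower by 2-fold or more. The share over all 22180 genes was 1.84%, and 2 of the 37 (5.41%) were higher, against 2.04%. This count, chosen after the data were seen, adds Acsbg1 to the lower genes and Cers6 to the higher ones, and drops Lipk. Of the 9 genes lower at their accepted place, 6 had 1 possible place. Of the 19 genes under 2-fold, 8 had 1 possible place, so for the other 11, among them Aloxe3, Elovl1 and Cers5, a value near equality rests on the accepted place. The 8 undecided genes are not in the counts by accepted place.

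Other genes of these pathways differed in both directions. Of 71 such genes on the array, 59 were decided, with 5 lower by 2-fold or more (8.47%, against 2.02% of all decided genes) and 4 higher (6.78%, against 2.31%). Their median difference was 0.03. The lower ones included Ephx3, an epoxide hydrolase of the epidermis, with 57.4 and 744 (12.9-fold), and the cholesterol sulphotransferase gene Sult2b1, with 208 and 650 (3.12-fold). The others were Alox12, the glucosylceramidase gene Gba2 (123 and 365, 2.98-fold) and the ceramidase gene Acer3 (270 and 616, 2.28-fold). Acer3 and Acer2, both alkaline ceramidase genes, thus lay on opposite sides. The higher ones were the acyl-CoA synthetase gene Acsl4 (1235 and 481, 2.57-fold), the nuclear receptor gene Ppara (157 and 65.2, 2.40-fold), the lysosomal lipase gene Lipa (942 and 454, 2.07-fold) and the desaturase gene Fads1 (3919 and 1918, 2.04-fold).

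Other decided relatives of the listed genes were under 2-fold. Among elongases, Elovl6 had 1299.9 and 1296 and Elovl2 61.4 and 62.1. The decided fatty acid transport protein genes Slc27a1, Slc27a2, Slc27a3, Slc27a5 and Slc27a6 differed by -0.18 to 0.43. Regulators and early enzymes of ceramide synthesis were level too, with the 4 decided ones (Kdsr, Ormdl1, Ormdl2 and Ormdl3) between -0.27 and 0.16. The sphingomyelinase genes Smpd2 (270 and 191, a difference of 0.50) and Smpd4 (208 and 194, a difference of 0.10) read higher in the knockout model, under 2-fold. The cholesterol transporter gene Abca1 had 456 and 288, 1.58-fold higher, opposite in direction to Abca12. A further transporter gene, Abcg1, had 189 and 344, 1.82-fold lower, in the same direction as Abca12. Pnpla2, the main triglyceride lipase of fat stores, had 323 and 171 (1.89-fold higher), while Pnpla3 (a difference of -0.08), Pnpla5 (0.41) and Acsbg2 (-0.14) differed less. Alox5 and Alox15 lay near or under the median level in both models. Tgm1 and Nipal4, further genes of inherited ichthyosis, were undecided and had possible values in both directions.

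Markers of cell types moved alongside these genes. Of 12 differentiating keratinocyte markers, 7 were lower (58.3%, against 2.02% of all decided genes) and 0 higher by 2-fold or more, with a median of -1.22 and summed intensities of 3672 in the knockout model and 13746 in wildtype. The 3 decided of 7 basal keratinocyte markers were lower as well (median -1.01, summed 5270 and 11766). Of these, 2 were lower by 2-fold or more, which is 66.7% of the 3 against 2.02% of all decided genes. Itgb4, Trp63 and Col17a1 were undecided, with possible values in both directions. At the likeliest places Itgb4 differed by 0.16, and Trp63 and Col17a1 by -0.78 each. Of 9 decided dermal fibroblast markers, 8 lay above 0 and 2 were at least 2-fold higher, which is 22.2% against 2.31% of all decided genes (median 0.84, summed 13911 and 7541). In such whole-model RNA, fewer keratinocytes and less RNA of these genes per keratinocyte cannot be told apart, and the part of cell numbers in the differences above was not tested. Not all markers of the upper layers were high in wildtype, since Krt1 (39.8 and 54.7), Flg (38.8 and 55.7) and Flg2 (35.0 and 40.1) lay near or under the median level. Ivl lay above that level and was near equal in the 2 models, with 143 and 141 at the accepted place.

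Most markers of other skin cells were under 2-fold, with Mlana, Kdr and Lpl as the ones past it. Of 9 decided sebaceous gland markers, 7 were under the median level in both models and 0 were 2-fold apart (median 0.08, summed 790 and 669), beside Elovl3 and Fa2h, which are also genes of that gland. Hair follicle markers (8 decided, 0 of them 2-fold apart, median 0.03, summed 3992 and 6469) were led by Krt17, which proliferating keratinocytes also express. For adipocytes, endothelium and macrophages with Langerhans cells, 1 of 6 (Lpl), 1 of 4 (Kdr) and 0 of 4 decided markers were at least 2-fold higher, against 2.31% of all decided genes, and none lower. Kdr, a receptor of vascular growth factor, had 87.4 and 36.1, and Lpl, lipoprotein lipase, 84.7 and 42.3, each with the wildtype value under the median level. Their summed intensities were 303 and 257, 197 and 154, and 974 and 1281, and 3 markers of each list were under the median level in both models. Of 6 melanocyte markers, Mlana was at least 2-fold higher, with 705 and 109, and the other 5 were under 2-fold (summed 915 and 331 over all 6).

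**Figure D4:**
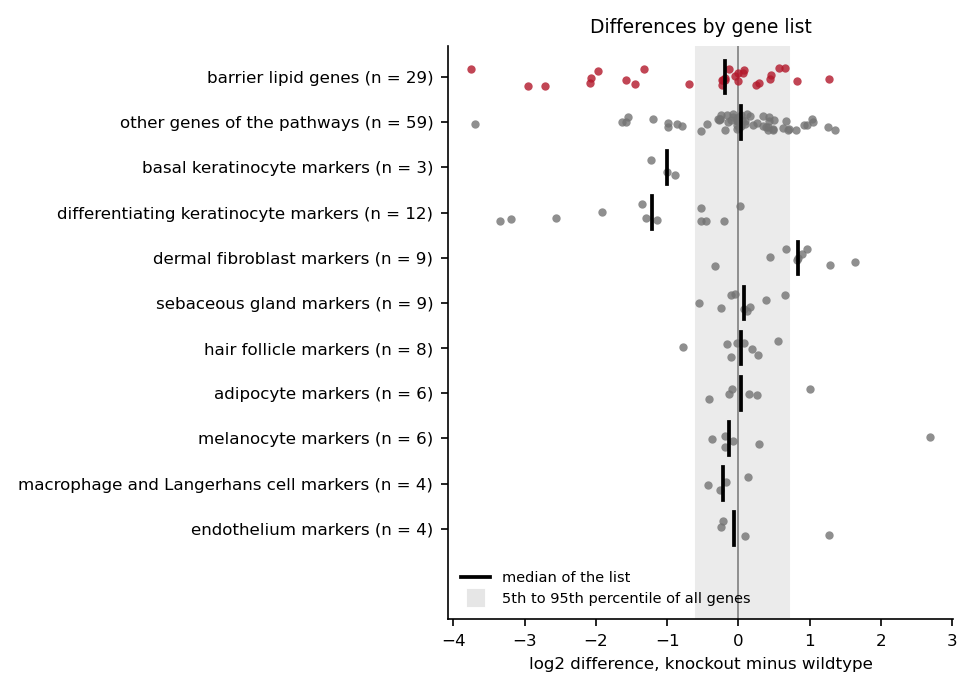
Log2 difference of knockout minus wildtype for each decided gene of the barrier lipid list, the other pathway genes and the marker lists; bars are medians, n is the number of decided genes, and the grey band spans the 5th to 95th percentile of all decided genes (-0.60 to 0.71). The barrier lipid genes have a long tail on the lower side and a median of -0.18, while the keratinocyte marker medians are -1.01 and -1.22 and that of fibroblast markers 0.84.

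Upstream sequences from RefSeq (GRCm38.p6) are shown for 4 lower genes of different steps and for Cers5, a synthase gene near equality. Cers5 was taken since Cers3 and Cers5 encode the same kind of enzyme and differed in the readout. Each run gives the 250 bases before the annotated start, 5′ to 3′ on the gene's strand, with matches to a searched motif in capitals. They lie at chr10:127898285-127898534 (plus strand) for Sdr9c7, chr11:69156822-69157071 (plus) for Alox12b, chr1:71414911-71415160 (minus) for Abca12, chr7:66743254-66743503 (plus) for Cers3 and chr15:99772516-99772765 (minus) for Cers5.
Sdr9c7: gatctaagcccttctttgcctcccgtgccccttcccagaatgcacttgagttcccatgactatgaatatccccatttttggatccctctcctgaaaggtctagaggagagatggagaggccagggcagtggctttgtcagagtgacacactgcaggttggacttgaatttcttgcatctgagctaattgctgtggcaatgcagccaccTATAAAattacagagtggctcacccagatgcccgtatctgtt
Alox12b: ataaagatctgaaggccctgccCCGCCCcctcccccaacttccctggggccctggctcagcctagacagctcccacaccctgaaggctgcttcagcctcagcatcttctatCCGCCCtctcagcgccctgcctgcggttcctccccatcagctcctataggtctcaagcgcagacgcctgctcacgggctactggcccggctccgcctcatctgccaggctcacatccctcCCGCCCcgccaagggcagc
Abca12: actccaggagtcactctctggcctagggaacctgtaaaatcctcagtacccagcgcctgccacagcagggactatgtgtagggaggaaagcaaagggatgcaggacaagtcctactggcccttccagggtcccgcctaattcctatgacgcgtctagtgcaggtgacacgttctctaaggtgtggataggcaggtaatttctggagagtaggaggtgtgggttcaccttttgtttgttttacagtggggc
Cers3: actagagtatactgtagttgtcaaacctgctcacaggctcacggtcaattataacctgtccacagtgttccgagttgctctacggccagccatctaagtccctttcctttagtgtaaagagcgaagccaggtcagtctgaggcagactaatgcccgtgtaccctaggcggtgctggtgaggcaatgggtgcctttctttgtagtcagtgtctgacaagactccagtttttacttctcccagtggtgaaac
Cers5: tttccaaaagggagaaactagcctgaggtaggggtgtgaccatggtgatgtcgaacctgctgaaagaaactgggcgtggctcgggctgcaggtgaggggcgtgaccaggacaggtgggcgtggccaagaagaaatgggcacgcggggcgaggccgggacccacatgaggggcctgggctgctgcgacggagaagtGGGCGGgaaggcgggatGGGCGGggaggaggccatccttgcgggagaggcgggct

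The motifs searched, on both strands, were AP-1 (TGANTCA), grainyhead-like (AACNGGTT), C/EBP (TTGCNNAA), the GC box (GGGCGG) and the TATA box (TATAAA), none of which overlapped in the runs shown. An upstream sequence was found for 31 of the 37 genes, 7 of them among the 9 lower ones, and the first listed start was used. The other 24 hold undecided genes too, such as Acsbg1, lower at both of its places, and Cers6, higher at both. Shares over all starts count every start of a gene, not only the first. A GC box was found in 1 of the 7 lower genes, Alox12b, and in 15 of the other 24, against 32.7% of all 32851 starts. A TATA box was found in Sdr9c7 alone of the 31, against 12.4% of all starts. AP-1 letters stood before Asah2 and Lipn (6.75% of all starts), C/EBP letters before Sptlc3, Cyp2b19 and Acsbg1 (9.56%), and grainyhead-like letters before none (1.79%). The median GC content was 49.6% for the 7 lower genes, 64.0% for the other 24 and 52.0% for all genes. These matches describe letters in a short window only.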

How the data were processed

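RNA of 2 samples, 1 knockout and 1 wildtype skin model, was measured on Affymetrix arrays after biotin labelling, per the labels. The authors deposited linear intensities, 1 per probe set; array software, probe set summary and any normalization are not given in the sources used. Of 67586 deposited intensities, 67457 lacked their decimal point. A place was possible if the resulting number, between 18 and 20000, was printed in full by single precision and was a power of 2 whose exponent is itself single precision. Pairs of places were weighted by how often their mean level and size of difference occurred over the array (expectation maximisation, 25 rounds), and a pair was accepted from a probability of 0.95 (31836 of 33793 probe sets, with 49.2 expected to be misplaced). Since that distribution comes from all genes, probabilities may be too high for a list that differs more. The step was also run on simulated data, drawn from the probe sets with 1 possible place and written in the same number form. That run therefore could not test the assumed form or the limits of 18 and 20000.

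Gene names came from the platform annotation (23521 with 1 symbol, 1814 with several, which were not used, and 8458 unnamed here). Where a gene had more than 1 probe set, the decided one with the highest mean was used. No filter on level, pseudocount or further normalization was applied (medians 46.2 and 46.6). Of the 37 genes, 30 were at or above the median level in both models, 2 in 1 model and 5 in neither. Genes were counted at 2-fold. All 37 genes are described, with other pathway genes named if at least 2-fold apart or of the same enzyme family as a listed gene, a rule applied to decided genes, with transporters taken by family too. Members and lists were chosen with earlier results of these data known. A further alternative, places with at least 3 decimals, and the count at every possible place were added after the data were seen. Values were computed with Python 3.11.15, numpy 2.4.6, scipy 1.17.1 and pandas 2.3.3.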

Additional observations from a re-analysis of the deposited data

How the results depend on the processing

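The count of 9 lower genes stayed between 6 and 11 under all settings tried, and its direction did not change. It was 7 at a probability of at least 0.99, 6 with 1 possible place only, and 8 with the mean over probe sets, where Pnpla1 dropped out. The count of higher genes was 5 and the median -0.045 with every gene at its likeliest place, and the count was 2 where every possible place had to be 2-fold apart and 0 where the lower value had to reach the median level. At 1.5-fold 3 genes were higher, and at 3-fold 0. For the other pathway genes, 3 were lower and 2 higher with 1 possible place only, since fewer genes have one. At the likeliest places 10 of them were lower and 6 higher, and after quantile normalization 7 were lower and 4 higher. At 1.5-fold 9 were lower and 11 higher, and at 3-fold 2 and 0, by construction of the threshold. Quantile normalization, the pseudocount of 16 and places with at least 3 decimals left the counts of 9 and 1 as they were. Of 157 differences of single genes under the alternatives, 9 moved by more than 0.1 log2 and 0 of those at least 2-fold apart changed sign. No paired analysis was possible because neither group has a second sample, which also means that none can be left out. Genes near the lowest readings have compressed differences, and the number of arrays limits the precision.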
